A study of Mus musculus with 6 samples.

Results

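A set of 29 cholesterol synthesis and sterol control genes was examined in cultured mouse keratinocytes with and without IL-33. They were chosen by name, for what their products do, and make up 29 of the 52550 gene identifiers with deposited values. The set holds 18 enzymes that build cholesterol from acetyl-CoA, 5 genes that control the SREBP transcription factors, and 6 genes for sterol transport, storage and uptake control. All 29 had enough counts to be tested.

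The cells were primary keratinocytes, the cells that form most of the epidermis, from the skin of wild-type C57BL/6 mice aged 0 to 2 days after birth. They were cultured for 2 days and then kept for 12 h without treatment (3 libraries) or with recombinant IL-33 at a dose not given in the sources used here (3 libraries). IL-33 is an alarmin, an interleukin that barrier cells release on damage. Messenger RNA libraries were made from total RNA of whole cultures, so fewer cells of a type and less RNA per cell cannot be told apart. The labels are silent on whether replicates are separate cultures, litters or mice, so p-values measure the spread between these libraries alone, and that spread may be technical.

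Cholesterol is made in the endoplasmic reticulum. The mevalonate arm of the pathway turns acetyl-CoA into farnesyl diphosphate, and the sterol arm joins farnesyl units into squalene, closes the rings to lanosterol and trims lanosterol to cholesterol. When membrane sterol is low, SCAP carries the SREBP proteins to the Golgi, where they are cut to release a transcription factor for most of these enzymes. When sterol is high, the INSIG proteins hold SCAP back, so the enzyme transcripts are widely read together as a gauge of sterol supply. SREBP works at promoters beside partners such as NF-Y, a complex of NFYA, NFYB and NFYC subunits that binds the letters CCAAT. In the epidermis, cholesterol is also a bulk component of the lipid layers that keep water in, and keratinocytes make much of it locally.

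Promoter stretches of 4 of the genes are shown to make those elements visible. RefSeq promoter windows on GRCm38.p6, which run from 250 bases before to 50 bases after a start site, were found for 23 of the 29 genes. Fdft1, Fdps, Sqle, Npc1, Abcg1 and Stard4 had no entry. Mvk, Sc5d and Insig1 were taken because they are among the 6 genes with the smallest p, and Hmgcs1 was added after its values were seen, since it alone held the SREBP element searched for. Only bases before the start site that no GENCODE exon covers are printed, 5′ to 3′ on the gene's strand. Capitals mark CCAAT, or ATTGG where CCAAT is on the opposite strand, and TCACCCCAC, a form of the sterol regulatory element. The stretches are chr5:114444061-114444268 on the plus strand for Mvk, chr9:42264301-42264550 on the minus strand for Sc5d, chr5:28071162-28071362 on the plus strand for Insig1 and chr13:119690101-119690350 on the plus strand for Hmgcs1.
Mvk: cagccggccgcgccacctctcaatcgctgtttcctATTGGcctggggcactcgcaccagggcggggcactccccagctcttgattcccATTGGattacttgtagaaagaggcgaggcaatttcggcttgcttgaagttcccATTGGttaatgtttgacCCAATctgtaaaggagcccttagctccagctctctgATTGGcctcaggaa
Sc5d: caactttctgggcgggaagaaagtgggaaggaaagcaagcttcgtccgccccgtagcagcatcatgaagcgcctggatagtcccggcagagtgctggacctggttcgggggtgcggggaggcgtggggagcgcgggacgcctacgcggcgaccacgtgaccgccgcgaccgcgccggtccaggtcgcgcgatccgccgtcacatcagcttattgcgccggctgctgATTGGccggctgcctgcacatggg
Insig1: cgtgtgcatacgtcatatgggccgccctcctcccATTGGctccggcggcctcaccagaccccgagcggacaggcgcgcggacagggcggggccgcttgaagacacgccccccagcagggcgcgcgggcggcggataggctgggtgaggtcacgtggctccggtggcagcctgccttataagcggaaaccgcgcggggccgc
Hmgcs1: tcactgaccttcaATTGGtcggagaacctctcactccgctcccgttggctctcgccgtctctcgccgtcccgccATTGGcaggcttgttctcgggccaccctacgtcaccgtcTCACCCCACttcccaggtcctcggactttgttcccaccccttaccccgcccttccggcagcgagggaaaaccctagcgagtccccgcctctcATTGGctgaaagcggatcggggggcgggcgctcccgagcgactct

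CCAAT on either strand was present in 37.4% of all 32851 RefSeq windows. It was present in 21 of the 31 windows of these genes (67.7%), and in 14 of the 15 synthesis enzymes with a window, the exception being Acat2. The Mvk window held 5 matches, with first bases 173, 120, 67, 50 and 14 bases before the start site. The Hmgcs1 window held 4, of which 3 lie in the printed stretch. Cyp51, also among the 6 genes with the smallest p, held 1 match, 29 bases before the RefSeq start and inside a GENCODE exon, so its stretch is not shown. TCACCCCAC on either strand was rarer, in 0.551% of all windows, and among these genes was found only in Hmgcs1, 137 bases before the start. The looser form TCACNCCAC, which contains it, was in 1.24% of all windows and added no other gene of the set. A match is a description of letters and not evidence of a bound site, and a missing match says only that the letters are not in that window.

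The genes covered a wide range of levels, and most were well expressed. On the FPKM scale, fragments per kilobase of transcript scaled to depth, which allows comparison between genes, 22 of the 29 averaged over 10 FPKM across the 6 libraries. Hmgcs1, which makes HMG-CoA, was highest at 150.8 FPKM and stood above 98.4% of all tested genes. Srebf2, the main SREBP gene of cholesterol synthesis, followed at 101.2 FPKM, ahead of Fdps at 93.1 and Cyp51 at 92.1 FPKM. The lowest enzyme was Tm7sf2, a sterol reductase, at 1.81 FPKM, and the ratio of Hmgcs1 to Tm7sf2 ran from 71.9 to 96.9 over the libraries. The transport genes ran from 0.948 FPKM for Abcg1, which exports sterol, to 17.3 FPKM for Stard4, which carries it between membranes. Along the mevalonate arm the mean levels were 61.0 FPKM for Acat2, 18.6 for Mvk, 28.7 for Pmvk, 54.8 for Mvd and 53.2 for Idi1. Along the sterol arm they were 43.0 FPKM for Fdft1, 30.4 for Sqle, 35.0 for Lss, 29.03 for Msmo1, 36.5 for Nsdhl, 16.04 for Hsd17b7, 13.8 for Ebp, 17.9 for Sc5d and 13.2 for Dhcr7. Hmgcs1, Fdps and Cyp51 gave 19.1%, 11.8% and 11.7% of the summed FPKM of the 18 enzymes.

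**Figure D1:**
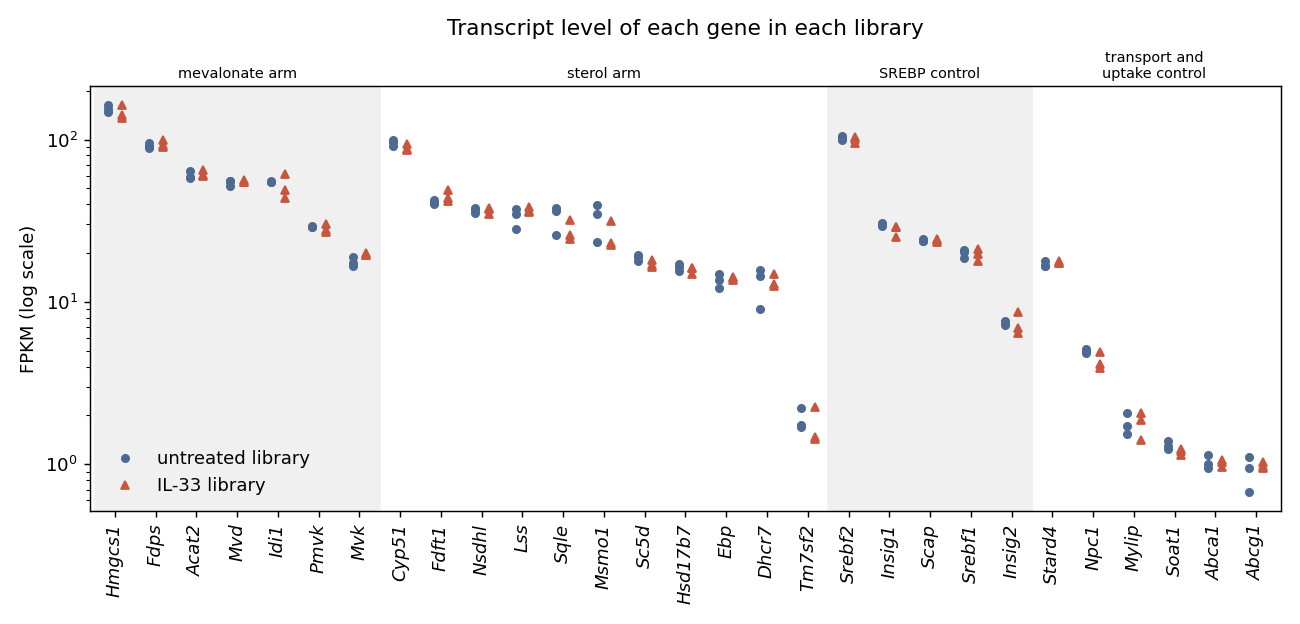
Level of each of the 29 genes in each library, in FPKM on a log axis, grouped by role and ordered by mean level. Circles are the 3 untreated and triangles the 3 IL-33 libraries; the groups sit at nearly the same height for most genes, from Hmgcs1 near the top to Abcg1 at the bottom.

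IL-33 left the set close to where it was. None of the 29 genes passed the test (edgeR's quasi-likelihood test, Benjamini-Hochberg adjusted p under 0.05 over all genes), and the smallest adjusted p among them was 0.740. Over all 15778 tested genes, 11 passed, which is 0.0697% (0.0444% higher and 0.0254% lower). At an unadjusted p under 0.05 there were 2 of the 29, Mvk higher and Npc1 lower, against 6.74% of all genes (3.42% higher and 3.31% lower). DESeq2 and limma-voom also called 0 of the 29, with 1 and 2 genes at an unadjusted p under 0.05. The log2 fold changes, IL-33 minus untreated, ran from -0.35 to 0.15 with a median of -0.022, and 12 of the 29 were above 0, compared with a median of 0.0018 and 50.5% above 0 among all tested genes.

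How large a change these libraries leave room for can be read from the intervals. The 95% interval of the fold change lay within 1.2-fold in either direction for 14 of the 29 genes, against 29.5% of all tested genes. It lay within 1.5-fold for 26, all but Msmo1, Sqle and Dhcr7, against 61.9% of all genes. It lay within 2-fold for 28, all but Msmo1, against 75.6%. The typical standard error was smaller than for genes at large, with a median of 0.0697 on the log2 scale compared with 0.128, and the members are also more highly expressed than most genes. The summed FPKM of the 18 enzymes was 799 ± 10.3 untreated and 779 ± 32.9 with IL-33 (SD, n = 3 each). Its 3 IL-33 values, 743, 786 and 808 FPKM, straddled the lowest of the untreated values of 809, 801 and 788 FPKM.

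**Figure D2:**
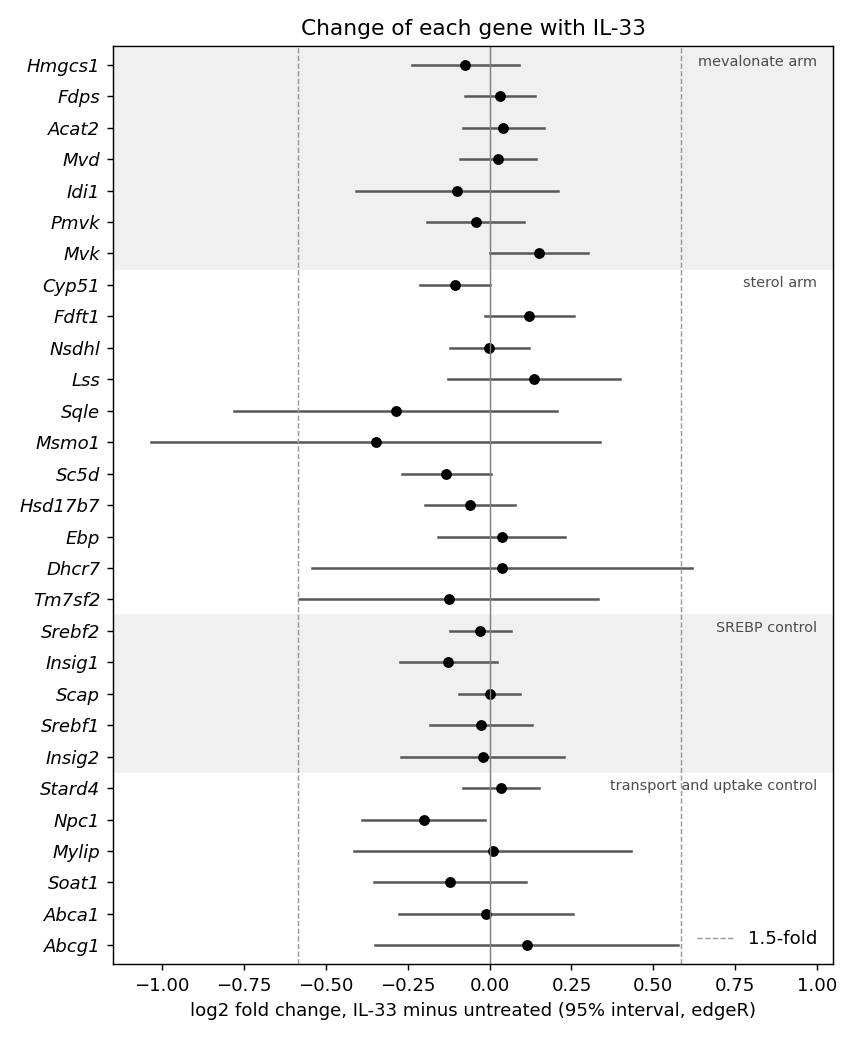
Log2 fold change of each gene, IL-33 minus untreated, as a point with its 95% interval from edgeR, by role and level; dashed lines mark 1.5-fold in either direction. Intervals of 26 of the 29 genes stay between the dashed lines, and those of Msmo1, Sqle and Dhcr7 cross them.

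In the mevalonate arm, 4 of 7 genes had log2 fold changes above 0 and none passed the test. The median was 0.03, and the summed level was 463 ± 3.34 FPKM untreated and 458 ± 24.1 FPKM with IL-33 (SD, n = 3 each). Hmgcs1 stood at 753, 789 and 828 CPM (counts scaled to library size by TMM) in untreated replicates 1 to 3, and at 691, 726 and 835 CPM after IL-33. IL-33 replicate 3 was the highest of the 6 libraries, the other IL-33 libraries were the lowest, and the groups overlapped (log2 fold change -0.07, SE 0.0711, edgeR adjusted p = 0.886).

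Mvk, the kinase that phosphorylates mevalonate, was the 1 synthesis enzyme whose groups did not overlap. Its values were 56.1, 52.2 and 49.5 CPM in untreated libraries and 57.5, 59.3 and 58.3 CPM after IL-33. All 3 IL-33 libraries were above all untreated ones, the nearest pair being 56.1 and 57.5 CPM. This gave a log2 fold change of 0.15 (SE 0.0668, unadjusted p = 0.0496, edgeR adjusted p = 0.741). Among all tested genes, 7.39% were higher in IL-33 without overlap, so 1 of 18 enzymes is near that share.

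Idi1, which isomerises isopentenyl diphosphate, is given because its IL-33 values were spread unlike its untreated values, a choice made after they were seen. It stood at 215, 214 and 216 CPM in untreated libraries and at 171, 189 and 241 CPM with IL-33. The untreated values lay within a narrow band, and the IL-33 values fell on both sides of it, with replicate 3 above and the others below (log2 fold change -0.10, SE 0.125, edgeR adjusted p = 0.913). The other 4 mevalonate-arm genes, Acat2, Pmvk, Mvd and Fdps, had log2 fold changes from -0.04 to 0.04, and their groups overlapped.

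In the sterol arm, 4 of 11 genes were above 0 and none passed the test, with a median log2 fold change of -0.06. The summed level was 336 ± 12.0 FPKM untreated and 322 ± 10.4 FPKM with IL-33 (SD, n = 3 each). This arm held the widest intervals, and several of its genes varied between libraries of one group. The coefficient of variation over the untreated libraries was 27.3% for Dhcr7, 24.9% for Msmo1, 19.6% for Sqle and 14.6% for Lss, while it was 0.240% for Pmvk and 0.439% for Idi1.

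Msmo1, which oxidises the methyl groups of lanosterol derivatives, had the largest estimated change of the set when all libraries were used. Its values were 268, 237 and 161 CPM in untreated libraries and 152, 215 and 157 CPM after IL-33. Untreated replicate 3 lay with the IL-33 libraries 1 and 3, and IL-33 replicate 2 lay nearer the other untreated ones, so the groups overlapped. Msmo1 had a log2 fold change of -0.35 (SE 0.257, edgeR adjusted p = 0.843). The interval in fold terms, 0.488 to 1.26, includes both no change and more than a halving. Without 1 library the log2 fold change of Msmo1 ran from -0.53 to -0.20, and Msmo1 did not always keep the largest change. The largest was that of Npc1, -0.30, without IL-33 replicate 1 and that of Sqle, -0.41, without IL-33 replicate 3. It was that of Abcg1, 0.27, without untreated replicate 1 and that of Sqle, -0.44, without untreated replicate 2.

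Sqle, squalene epoxidase, makes the substrate for ring closure. It stood at 235, 160.1 and 224 CPM in untreated libraries and 159, 151 and 198 CPM after IL-33. Untreated replicate 2 was level with IL-33 replicate 1, and the groups overlapped (log2 fold change -0.29, SE 0.190, edgeR adjusted p = 0.824).

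Lss, lanosterol synthase, closes the ring system. It stood at 335, 447 and 419 CPM in untreated libraries and 426, 458 and 434 CPM after IL-33, and untreated replicate 1 lay well below the other 5 libraries. Its groups overlapped, with a log2 fold change of 0.13 (SE 0.108, edgeR adjusted p = 0.855), which was 0.015 without untreated replicate 1 and 0.22 without untreated replicate 2. Cyp51, which removes a methyl group from lanosterol, stood at 486, 447 and 473 CPM in untreated libraries and 426, 421 and 459 CPM after IL-33. Both IL-33 replicates 1 and 2 were under every untreated library, while replicate 3 was inside the untreated range. For Cyp51 this was a log2 fold change of -0.11 (SE 0.0477, edgeR adjusted p = 0.747).

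Sc5d, a desaturase near the end of the route, stood at 102, 105 and 96.6 CPM in untreated libraries and 90.8, 98.0 and 88.6 CPM after IL-33. The groups overlapped through IL-33 replicate 2 and untreated replicate 3, and the log2 fold change was -0.13 (SE 0.0607, edgeR adjusted p = 0.754). Tm7sf2, the lowest enzyme, stood at 6.70, 6.91 and 8.72 CPM in untreated libraries and 5.66, 5.87 and 8.92 CPM after IL-33. Replicate 3 was the highest in each group, the groups overlapped, and the log2 fold change was -0.13 (SE 0.204, edgeR adjusted p = 0.935).

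Fdft1, squalene synthase, and Dhcr7, which makes cholesterol from its last precursor, were added after their values were seen. Fdft1 stood at 194, 199.9 and 187 CPM in untreated libraries and 197, 230.3 and 205 CPM after IL-33, with the groups overlapping through IL-33 replicate 1. Its log2 fold change was 0.12 (SE 0.0605, edgeR adjusted p = 0.763). Dhcr7 stood at 101, 94.4 and 58.3 CPM in untreated libraries and 95.6, 84.1 and 81.1 CPM after IL-33, with untreated replicate 3 well below the other 5 libraries. Its log2 fold change was 0.04 (SE 0.227, edgeR adjusted p = 0.983), and turned to -0.17 (SE 0.0827) without untreated replicate 3. Nsdhl, Hsd17b7 and Ebp, which remove a carboxyl group, reduce a keto group and shift a double bond, had log2 fold changes from -0.06 to 0.04.

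The 5 SREBP control genes held the narrowest results, with 95% intervals of the fold change between 0.827 and 1.17. Their summed level was 184 ± 3.35 FPKM untreated and 179 ± 5.30 FPKM with IL-33 (SD, n = 3 each). Srebf2 stood at 568, 581 and 551 CPM in untreated libraries and 575, 562 and 531 CPM after IL-33, a log2 fold change of -0.03 (SE 0.0417, edgeR adjusted p = 0.928). Srebf1, whose products drive fatty acid and cholesterol genes, stood at 131, 128 and 117 CPM in untreated libraries and 133, 124 and 113 CPM after IL-33, a log2 fold change of -0.03 (SE 0.0697, edgeR adjusted p = 0.965). Srebf2 exceeded Srebf1 in FPKM by 4.90 to 5.32 times in the 6 libraries.

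Scap, the escort of SREBP, had the smallest estimated change of the set. It stood at 195, 203 and 196 CPM in untreated libraries and 201, 199 and 194 CPM after IL-33. The log2 fold change was 0.00023 (SE 0.0413, edgeR adjusted p = 1.00), and its sign changed with the scaling. Insig1, the retention factor that SREBP itself induces, stood at 101, 104 and 105 CPM in untreated libraries and 85.9, 99.0 and 99.1 CPM after IL-33. All 3 IL-33 libraries were below all untreated ones, with 99.1 against 101 CPM as the nearest pair, and 6.26% of all tested genes were lower in this way. The log2 fold change was -0.13 (SE 0.0659, edgeR adjusted p = 0.763).

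Insig2, the second retention factor, stood at 29.2, 28.2 and 29.4 CPM in untreated libraries and 24.96, 33.6 and 27.0 CPM after IL-33. Its IL-33 values lay on both sides of the untreated ones, and the log2 fold change was -0.02 (SE 0.111, edgeR adjusted p = 0.982). Insig1 exceeded Insig2 in FPKM by 3.33 to 4.16 times, lowest in IL-33 replicate 2.

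Among the 6 transport and uptake genes, 3 had log2 fold changes above 0 and none passed the test. The summed level was 27.1 ± 0.733 FPKM untreated and 26.9 ± 0.0724 FPKM with IL-33 (SD, n = 3 each). Npc1, which moves cholesterol out of lysosomes, had the smallest p of the set. It stood at 58.1, 59.4 and 60.7 CPM in untreated libraries and 58.3, 49.5 and 47.2 CPM after IL-33. IL-33 replicate 1 lay inside the untreated range and the other replicates below it. The log2 fold change was -0.20 (SE 0.0835, unadjusted p = 0.0376, edgeR adjusted p = 0.740), with a fold interval of 0.764 to 0.990.

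Stard4 stood at 111, 104 and 104 CPM in untreated libraries and 107, 108 and 112 CPM after IL-33, and the groups overlapped (log2 fold change 0.03, SE 0.0517, edgeR adjusted p = 0.928). Abcg1 stood at 5.01, 3.09 and 4.30 CPM in untreated libraries and 4.30, 4.43 and 4.69 CPM after IL-33, with untreated replicate 2 the lowest (log2 fold change 0.11, SE 0.207, edgeR adjusted p = 0.947). Its 3.09 CPM is 128 deposited counts, the lowest count of any of the 29 genes. Soat1, which esterifies cholesterol for storage and was added after its values were seen, was the remaining gene whose groups did not overlap, at 13.7, 14.2 and 15.2 CPM in untreated libraries and 13.6, 12.6 and 13.3 CPM after IL-33. Its log2 fold change was -0.12 (SE 0.104, edgeR adjusted p = 0.863). In all, 3 of the 29 genes did not overlap between groups, against 13.7% of all tested genes. Abca1, a sterol exporter, and Mylip, which marks lipoprotein receptors for destruction, had log2 fold changes of -0.01 and 0.01.

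The 3 IL-33 libraries did not rank alike across the enzymes. IL-33 replicate 1 was the lowest of its group for 11 of the 18 enzymes, and 32.0% of all tested genes were lowest there. IL-33 replicate 3 was the highest for 7, namely Acat2, Hmgcs1, Idi1, Sqle, Cyp51, Tm7sf2 and Hsd17b7, and 34.7% of all genes were highest there. IL-33 replicate 2 was the highest for 9 enzymes, and 32.7% of all genes were highest there. IL-33 replicate 1 was the highest for Dhcr7 and Ebp. Without IL-33 replicate 3, 4 genes had an unadjusted p under 0.05, against 9% of all genes in that fit. All 4 were lower with IL-33, with edgeR adjusted p-values of 0.102 for Idi1, 0.319 for Hmgcs1, 0.338 for Cyp51 and 0.555 for Insig1. IL-33 replicate 3 was the highest of its group for each of these 4 genes. Leaving it out therefore lowers their estimates by construction, and the shared direction carries no further information. The median log2 fold change of the 29 genes in that fit was 0.0053. The log2 fold change of Idi1 was then -0.25 (SE 0.0524), whereas without IL-33 replicate 1 it was 0.0011. None of the 29 passed the test in any of the 6 fits that left out a library.

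**Figure D3:**
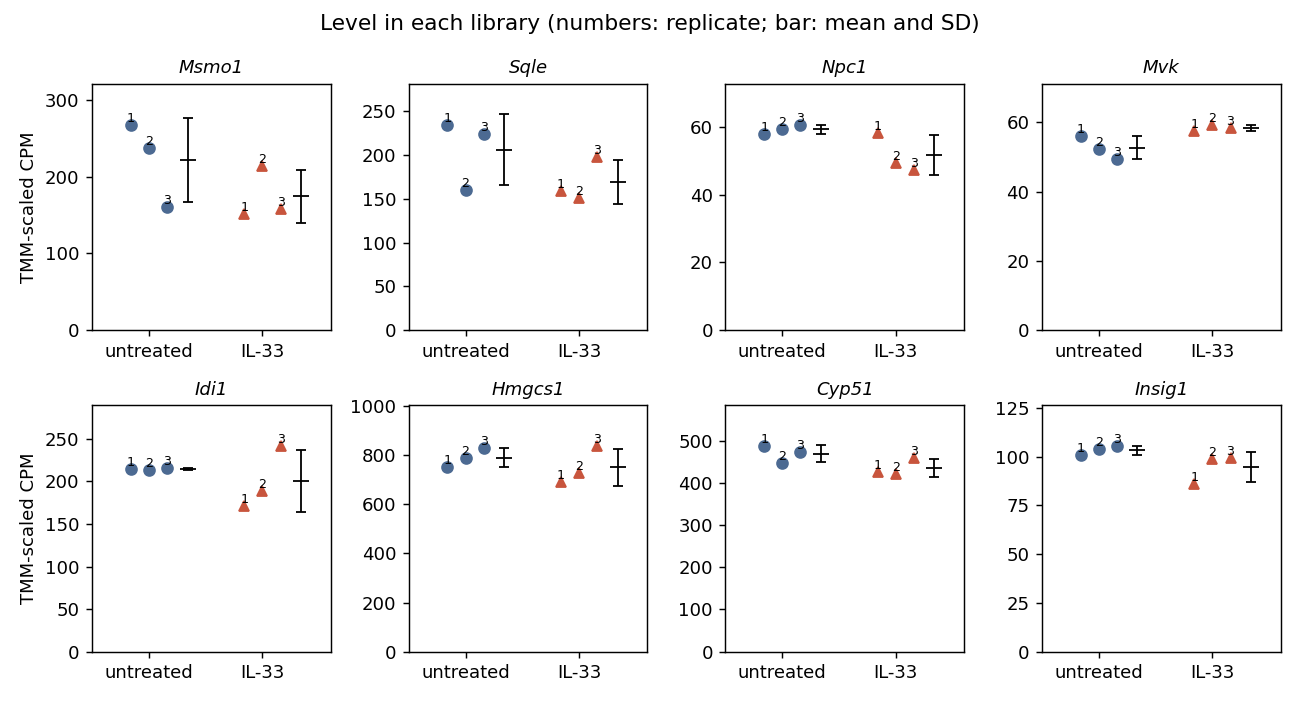
TMM-scaled CPM of 8 genes in each library, with replicate numbers beside the points and the mean and SD of each group as a bar (n = 3 each). Msmo1 and Sqle vary within the untreated group; for Idi1, Hmgcs1 and Cyp51, IL-33 replicate 3 stands above IL-33 replicates 1 and 2.

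The deposited tables also split each gene's counts among its annotated transcripts. Of 161 annotated transcripts of these genes, 104 were tested and none passed edgeR's test (smallest adjusted p = 0.479), against 0.0299% of all 40163 tested transcripts. At an unadjusted p under 0.05 there were 5, against 4.24% of all. DESeq2 called 2 of them, Hmgcs1-204 (adjusted p = 2.33e-05) and Insig2-208 (adjusted p = 7.45e-06), while it called 539 of all 74209 transcripts with any counts, or 0.726%. Its default filter gives some low-count transcripts no adjusted p, so the share among those it could call is higher than this. The tools read the same estimated counts and their calls differ, so each call below is tied to its tool. The share of all tested transcripts whose groups did not overlap was not counted. Transcripts said below not to overlap can therefore not be set against such a share.

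Hmgcs1-204 is a transcript with a retained intron at chr13:119690462-119702186 in GENCODE M21. It was given 41, 11 and 13 counts without IL-33 and 350, 151 and 459 counts after it. The groups did not overlap, and in the IL-33 libraries it made up 0.610% to 1.25% of the counts of Hmgcs1, compared with 0.0337% to 0.122% untreated. The edgeR adjusted p was 0.479, and from 0.324 to 0.738 with each library left out. The protein-coding Hmgcs1-201 went the other way, at 146, 157 and 149.7 CPM in untreated libraries and 115, 127 and 112 CPM after IL-33, again without overlap. Its log2 fold change was -0.35 (SE 0.0641, edgeR adjusted p = 0.482, DESeq2 adjusted p = 0.153). The main coding transcript, Hmgcs1-202, had 27032, 26081 and 30706 counts untreated and 24907, 20193 and 31438 with IL-33, and overlapped.

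Insig2-208, a coding transcript, had 34, 219 and 154 counts untreated and was listed at 0 in all 3 IL-33 libraries. The edgeR adjusted p was 0.642, and from 0.505 to 0.869 with each library left out. The longer Insig2-201 had 1207, 905 and 1123 counts untreated and 1026, 1076 and 1104 with IL-33. Idi1-205, a minor transcript, had 45, 48 and 77 counts untreated and 18, 22 and 27 with IL-33 (edgeR adjusted p = 1.00). Srebf1-207, which starts downstream of Srebf1-201, was at 14.0, 14.2 and 13.7 CPM in untreated libraries and 17.6, 16.2 and 20.7 CPM after IL-33 (edgeR adjusted p = 1.00). The major Srebf1-203 was at 72.7, 67.8 and 66.7 CPM in untreated libraries and 62.2, 64.5 and 54.7 CPM after IL-33, so neither transcript's groups overlapped. Which SREBP-1 protein each one encodes was not examined.

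For several enzymes the assigned transcript changed from library to library within a group. Lss-201, the coding form, had 1222 counts in untreated replicate 1 and 14650 to 18118 in the other 5 libraries. In that library 8756 counts went to Lss-204, a retained-intron transcript given 172 to 240 elsewhere, and this is the library in which the Lss gene value was lowest. Dhcr7-201 was listed at 0 in untreated replicate 1, where Dhcr7-207 and Dhcr7-202 had 1792 and 1580 counts. Sqle-202 was likewise listed at 0 in untreated replicate 1 and had 2153 to 4240 counts elsewhere.

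Fdft1-201 had 3465, 3429 and 3015 counts untreated and 2592, 7041 and 7590 with IL-33. Fdft1-204 had 5139, 4783 and 5380 counts untreated and 6010, 780 and 1437 with IL-33, so the leading transcript was Fdft1-204 in 4 libraries and Fdft1-201 in IL-33 replicates 2 and 3. Transcripts of one gene share most of their sequence, and their split is the authors' estimate; 17 of the 29 genes had at least 2 transcripts over 10% of the gene's summed FPKM. Whether the retained-intron and isoform values reflect RNA or assignment was not tested.

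**Figure D4:**
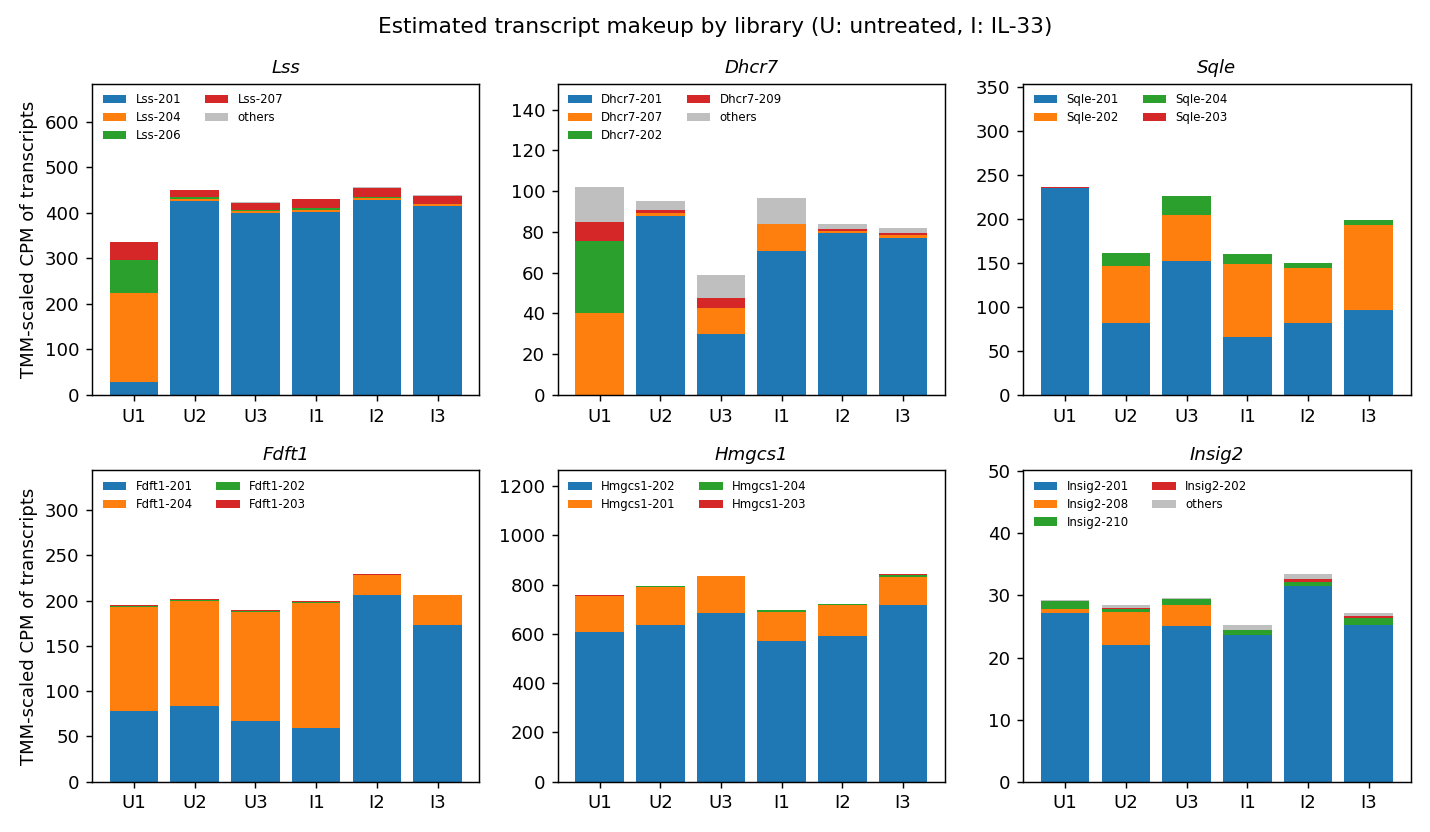
Estimated transcript makeup of 6 genes in each library (U untreated, I IL-33, with the replicate number), as stacked TMM-scaled CPM. In U1, Lss, Dhcr7 and Sqle have a makeup unlike the other libraries; Fdft1 switches in I2 and I3; Insig2-208 is seen in the untreated libraries only.

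Genes around the pathway were read from 8 lists chosen for their known roles, with earlier results of these data known, and with 83 genes, of which 79 were tested. Of these 79, 1 passed the test, against 0.0697% of all tested genes. Because earlier results were known when the lists were chosen, that count carries no weight. The gene was Nfya, the regulatory subunit of NF-Y. It stood at 37.7, 35.9 and 38.8 CPM in untreated libraries and 68.9, 75.4 and 67.8 CPM after IL-33. The IL-33 libraries were all well above the untreated ones. Nfya rose by a log2 fold change of 0.92 (SE 0.0692, edgeR adjusted p = 0.00128), with adjusted p from 0.000584 to 0.00865 when each library was left out. The call was lost in limma on log2(FPKM + 0.1), where the adjusted p was 0.0742, and 0.150 with no filter on low values. The other subunits, Nfyb and Nfyc, had log2 fold changes of -0.04 and 0.04 (edgeR adjusted p = 0.961 and 0.963). The CCAAT counts given above describe letters, and no binding was measured.

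The sterol enzymes draw electrons from a small group of donors and partner proteins. None of its 9 tested genes passed, and the 3 named by the rule of the smallest p are given here. Cyb5a, cytochrome b5, stood at 43.3, 57.0 and 59.1 CPM in untreated libraries and 64.2, 65.3 and 66.5 CPM after IL-33 (log2 fold change 0.30, edgeR adjusted p = 0.740). Its reductase Cyb5r3 stood at 217, 229 and 214 CPM in untreated libraries and 246, 233 and 233 CPM after IL-33 (log2 fold change 0.11, edgeR adjusted p = 0.740). Both were higher in every IL-33 library than in any untreated one.

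Por, the reductase that feeds electrons to CYP51 and squalene epoxidase, was lower in every IL-33 library, at 108, 108 and 106 CPM in untreated libraries and 97.3, 102 and 91.1 CPM after IL-33 (log2 fold change -0.15, edgeR adjusted p = 0.740).

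In the other lists no gene passed the test. The 12 tested SREBP processing and sterol-sensing factors had a median of 0.02 on the log2 scale, 7 of them above 0, and Vcp, Ufd1 and Erlin1 had the smallest p (edgeR adjusted p = 0.848, 0.853 and 0.884). The 14 fatty acid genes driven by SREBP-1 had a median of -0.01, with 6 above 0. Among them Fads1, a desaturase, was lower in every IL-33 library (112 ± 1.94 CPM in untreated libraries and 103 ± 1.45 CPM treated, SD, n = 3 each; edgeR adjusted p = 0.740). The 13 genes of the isoprenoid list had a median of -0.05, with 4 above 0. Not all of them act after farnesyl diphosphate, and Trit1, which does not, had the smallest p (log2 fold change -0.19, edgeR adjusted p = 0.763).

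Among the 9 tested genes of the liver X receptor list, Ncor1, a co-repressor, averaged 144 ± 3.89 CPM in untreated libraries and 157 ± 4.08 CPM treated (SD, n = 3 each; edgeR adjusted p = 0.740). Nr1h3, one of the receptors, stands apart in the plot of the lists at a log2 fold change of -1.22 (SE 1.38), but was at or under 0.894 CPM in every library. Among 14 lysosomal and membrane-contact transport genes, Osbpl9 averaged 84.1 ± 4.95 CPM in untreated libraries and 92.6 ± 1.86 CPM treated (SD, n = 3 each; edgeR adjusted p = 0.740). The 5 tested cholesterol sulfate and oxysterol genes had no unadjusted p under 0.05, and Nceh1, an ester hydrolase, had the smallest (log2 fold change -0.21, edgeR adjusted p = 0.763).

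**Figure D5:**
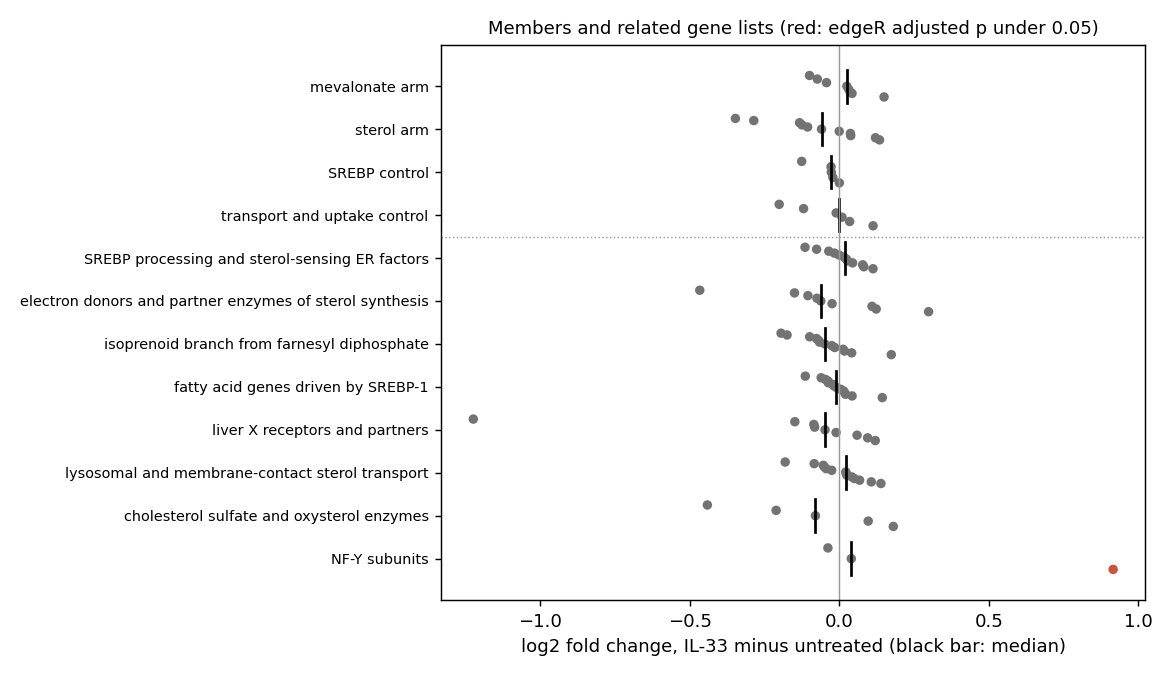
Log2 fold change, IL-33 minus untreated, of every tested gene in the 4 role groups of the 29 genes (above the dotted line) and in the 8 related lists (below it), with the median of each as a black bar. All but Nfya, in red at 0.92, missed the edgeR threshold, and the medians lie near 0.

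No cell type marker passed the test, although some did not overlap between groups. The libraries held 34188173 to 45266298 deposited counts, IL-33 replicate 2 being the shallowest. The summed level of 6 basal keratinocyte markers was 35615 ± 589 CPM in untreated libraries and 36653 ± 1311 CPM treated (SD, n = 3 each), and that of 6 suprabasal markers 17.7 ± 0.150 and 16.9 ± 1.92 CPM. Melanocyte markers summed to 1131 ± 31.5 and 1149 ± 50.4 CPM, so melanocyte RNA was present in both groups. Fibroblast markers summed to 32.8 ± 4.66 and 28.99 ± 2.30 CPM, and leukocyte markers to 10.1 ± 0.834 and 11.6 ± 2.48 CPM, with Cd3e and Cd207 at 0 throughout. Most of the leukocyte sum was Csf1r, which averaged 9.75 CPM untreated and 10.3 CPM treated, and Ptprc was at 0 except in IL-33 replicate 3. Lyz2 had 34, 8 and 0 counts in untreated libraries and 16, 16 and 130 after IL-33, so its rise came from IL-33 replicate 3 (log2 fold change 1.98, edgeR adjusted p = 0.825). Endothelial markers summed to 17.4 CPM in the untreated and 16.8 CPM in the treated libraries on average. Most of that sum was Kdr, at 14.2 CPM untreated and 13.1 CPM treated, while Cdh5 averaged 0.121 and 0.0682 CPM. The 6 genes listed as markers of fat and sebaceous cells, which make much lipid, summed to 3.14 ± 0.402 and 3.12 ± 0.558 CPM. Soat2 made up most of this sum, at 2.27 CPM untreated and 2.09 CPM treated. Adipoq, Plin1 and Mc5r were at 0 in all libraries, and Soat2, Fabp4 and Awat2 were detected in every one. Within these lists Itgb4, a basal integrin, was at 1112, 1131 and 1117 CPM in untreated libraries and 1007, 1004 and 849 CPM after IL-33 (edgeR adjusted p = 0.575). Col1a1, a fibroblast collagen, averaged 7.70 ± 4.31 CPM and 3.38 ± 0.887 CPM, and Ivl, a suprabasal marker, 5.72 ± 0.527 CPM and 4.07 ± 1.00 CPM (SD, n = 3 each; edgeR adjusted p = 0.740 for both). All 3 were lower in every IL-33 library than in any untreated one, as was Tyr, a melanocyte marker (log2 fold change -0.38). Krt5, a basal keratin, and Mlana, a melanocyte marker, were higher in every IL-33 library (log2 fold changes 0.07 and 0.05). Krt1, a suprabasal keratin, had a log2 fold change of 0.94 with overlapping groups (edgeR adjusted p = 0.740). The part of cell makeup in the values above was not tested.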

How the data were processed

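The submitters' processing notes list the build mm10 and the tools StringTie 1.3.4d, HISAT2 2.1.0, FastQC 0.11.7 and DESeq2 1.18.1, with their roles not given in the sources used here. For 6 libraries, 3 in each group, the authors deposited estimated counts and FPKM per gene and per transcript. The deposited estimated counts are whole numbers, and their scale is uncertain. In untreated replicate 1 there were 4999 transcripts at 1 and 2375 at 2, with further piles at 4 (2209, against 1940 at 3) and 8 (1416, against 1137 at 7). If 1 fragment is worth several deposited counts, count models overstate precision, so counts divided by 4 were also tested.

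Identifiers were matched to GENCODE M21 symbols on GRCm38, 24 of the 29 with the version and 5 without it. Of the 29 genes, 15 overlap another annotated gene, 5 of them on the same strand, with strand use in counting not given in the sources used here. Groups were compared with edgeR 4.0.16 in R 4.3.3 (quasi-likelihood test, TMM scaling, robust fit, filterByExpr minimum count 10) on 3 IL-33 and 3 untreated libraries, with Benjamini-Hochberg adjustment over all tested genes. The fit was tested on simulated data. CPM are TMM-scaled. Alternatives used limma 3.58.1 and DESeq2 1.42.0, other scalings and filters, the replicate number as a block, and each library left out. The genes and lists were chosen with earlier results of these data known. Library values are given for genes with an unadjusted p under 0.05, the 6 largest changes, the SREBP control genes and the highest and lowest gene by FPKM of each role. From each related list up to 3 genes with the smallest p are named, 1 gene is not reported here, and from promoters the 6 genes with the smallest p. Counts divided by 4 differed beyond sampling noise for every pair of libraries within a group, and pairs across groups were not compared. No library was treated as a copy.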

Additional observations from a re-analysis of the deposited data

How the results depend on the processing

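None of the 29 genes passed the threshold in any of the 19 alternative gene fits or at an adjusted p under 0.1, and the smallest adjusted p, 0.102 for Idi1, came without IL-33 replicate 3. The number above 0 ran from 9 to 15, and the median log2 fold change ran from -0.045 (without untreated replicate 2) to 0.0053 (without IL-33 replicate 3). Among all tested genes the 11 calls became 71 with DESeq2, 31 with DESeq2 on counts divided by 4, 17 with no low-count filter, 2 in limma on log2(FPKM + 0.1) with or without the filter, and 3 on log2(FPKM + 1). With each library left out they ran from 11 to 90, reaching 90 without IL-33 replicate 3, and 18 or 20 when untreated replicate 3 or IL-33 replicate 1 was dropped. Transcript calls among these genes were 0 in edgeR, also with each library left out, and 2 with DESeq2. It called 539 of the 74209 transcripts with any counts, and the cause of the difference was not tested.

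The log2 fold change of Scap, 0.00023, turned to -0.0011 with DESeq2, -0.0018 with RLE scaling, -0.0013 with DESeq2 and -0.00055 with edgeR on counts divided by 4, -0.0019 with library totals only, -0.0072 with no low-count filter and -0.00049 with a stricter filter. With each library left out in turn, 14 of the 29 genes changed sign at least once. Of those named by the rule, Scap ran from -0.016 to 0.016, Abcg1 from -0.063 to 0.27, Insig2 from -0.16 to 0.064, Srebf1 from -0.087 to 0.034, Srebf2 from -0.055 to 0.00597 and Tm7sf2 from -0.37 to 0.0044.

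Libraries that share a replicate number did not deviate together (correlations from -0.026 to 0.068 over 9778 genes). With the replicate block, 8 of all genes, 0 of the 29 genes and 0 of their transcripts passed, the median log2 fold change was -0.028, and 12 of the 29 were above 0. Under the block 5 of the 29 (Cyp51, Fdft1, Npc1, Sc5d and Sqle, not Mvk) had an unadjusted p under 0.05, against 6.4% of all genes. With 3 libraries a group, changes smaller than the intervals given could not be seen.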
